A study of Mus musculus with 12 samples.

Results

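The genes described are 10 genes of blood vessels, 8 that mark vascular endothelial cells (Pecam1, Cdh5, Kdr, Flt1, Tek, Tie1, Emcn and Cldn5), Rgs5, a marker of pericytes, and Mcam, which is found on endothelium and mural cells. They were chosen by name, with earlier results of these data known. Every probe set that the platform's annotation assigns to exactly 1 of them was taken, which gave 17 probe sets of 45101 on the array, for 10 of 18194 genes. RNA came from primary mammary epithelial cells of female FVB/N mice, and 1 single-colour Affymetrix array was run per biological replicate. All mice carried MMTV-rtTA, a doxycycline-responsive activator driven by the mouse mammary tumour virus promoter, and the 6 control arrays come from mice with that transgene alone. The 6 p190B arrays come from mice that also carried TetO-p190B-IRES-luciferase, in which the activator switches on the GTPase-activating protein p190B together with luciferase. Doxycycline was given to control and p190B mice alike, at 2 g/kg in the chow, starting at an age of 5 weeks and lasting 7 days, and cells were isolated at 6 weeks. The transgenes were built to act in the mammary gland, whose epithelium is the usual site of MMTV promoter activity, and vessel cells are not the cells this promoter is used to target. The labels do not say how many mice gave each preparation or whether mice were pooled, so p-values measure the spread between these arrays.

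Vessels are lined by endothelial cells, which hold together through VE-cadherin and claudin-5 and respond to VEGF through the receptors encoded by Kdr and Flt1 and to angiopoietins through the receptor encoded by Tek. Pericytes wrap the capillary wall and depend on PDGF-B signalling through Pdgfrb. In the mammary gland a capillary bed surrounds the ducts and lies in the stroma.

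The vessel genes were read well above the dim end of the arrays in every preparation. All 17 probe sets passed the filter on low values, which kept 27022 probe sets with a mean above about 101 intensity units, and the lowest single value among them was 274.8 units, for the dimmer Cdh5 probe set on p190B replicate 3. Epithelial RNA was present at a high level on the same arrays, with Krt18, a luminal keratin, between 40812 and 53565 units. In such a bulk sample fewer vessel cells and less RNA per vessel cell cannot be told apart.

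Promoters are shown for the 4 members whose start site in RefSeq is also the outer end of the gene model. Each run is the 250 bases before the start site, 5′ to 3′ on the gene's strand, from RefSeq on GRCm38.p6. Capitals mark GGAA or its complement TTCC, the core letters bound by ETS factors, a family active in endothelial genes.
Tie1, chr4:118489850-118490099, minus strand: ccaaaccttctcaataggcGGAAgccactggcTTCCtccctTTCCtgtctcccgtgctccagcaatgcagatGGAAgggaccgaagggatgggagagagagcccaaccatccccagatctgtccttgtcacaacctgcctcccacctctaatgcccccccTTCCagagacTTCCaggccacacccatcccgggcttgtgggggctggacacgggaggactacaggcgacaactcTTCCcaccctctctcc
Cldn5, chr16:18776597-18776846, plus strand: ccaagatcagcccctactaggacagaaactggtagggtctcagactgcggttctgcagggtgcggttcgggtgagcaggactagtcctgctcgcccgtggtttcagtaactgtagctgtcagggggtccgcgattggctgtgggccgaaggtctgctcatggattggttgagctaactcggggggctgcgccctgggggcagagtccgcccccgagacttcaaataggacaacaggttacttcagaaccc
Rgs5, chr1:169655251-169655500, plus strand: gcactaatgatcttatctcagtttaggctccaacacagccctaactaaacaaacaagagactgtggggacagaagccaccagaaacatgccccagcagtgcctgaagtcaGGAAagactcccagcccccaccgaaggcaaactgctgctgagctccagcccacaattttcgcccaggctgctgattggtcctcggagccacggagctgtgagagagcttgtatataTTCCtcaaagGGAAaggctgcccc
Mcam, chr9:44134408-44134657, plus strand: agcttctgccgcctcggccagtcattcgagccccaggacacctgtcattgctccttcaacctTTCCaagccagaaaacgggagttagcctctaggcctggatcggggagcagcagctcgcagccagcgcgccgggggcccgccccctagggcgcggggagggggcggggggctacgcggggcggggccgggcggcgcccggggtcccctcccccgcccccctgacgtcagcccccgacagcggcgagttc
The 4 stretches differed in these letters, with 7 matches before Tie1, 3 before Rgs5, 1 before Mcam and 0 before Cldn5. Over the 300-base windows that RefSeq entries gave for 8 members (250 bases before to 50 after the start), 7 of 8 held GGAA on either strand, against 96.0% of 32851 mouse promoter windows of that length. Tie1 held 9 copies, a number that 1.59% of all windows reach, and Emcn held 6, which 15.7% reach. The longer forms AGGAAG and CCGGAA, which contain GGAA, were found in 3 of 8 and 1 of 8 windows, against 35.4% and 14.9% of all windows. GATAA, the core letters of GATA factor sites, was in 3 of 8 windows and in 25.4% of all, and TATAAA was in 1 of 8 and in 13.6% of all, again on either strand. A match in letters is a description of the window and not a bound site.

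The VEGF receptors overlapped between genotypes. Kdr, which encodes VEGF receptor 2, the main signalling receptor for VEGF-A, ran from 2051.2 to 3961.0 intensity units in control (median 3636.6) and from 2333.3 to 4075.2 in p190B (median 3051.4). The groups overlapped almost fully, with control replicates 2 and 6 at the bottom and p190B replicate 3 at the top. The log2 difference, p190B minus control, was 0.0011 (SE 0.18), with a 95% interval from −0.38 to 0.39 (limma adjusted p = 0.999). Flt1, which encodes VEGF receptor 1, a high-affinity receptor that also limits VEGF supply, ran from 1906.6 to 3569.9 units in control (median 3290.5) and from 2341.7 to 3443.9 in p190B (median 2586.8) by its brightest probe set, 1419300_at. Again the lowest arrays were control replicates 6 and 2, and the difference was −0.06 (SE 0.16; limma adjusted p = 0.944).

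Flt1 is read by 3 further probe sets, and they gave differences of −0.21 (SE 0.14) for 1440926_at, −0.06 (SE 0.14) for 1451756_at and 0.02 (SE 0.13) for 1454037_a_at. Across the 12 arrays 1451756_at followed the brightest one with r = 0.89 and 1440926_at with r = 0.77, while 1454037_a_at had r = 0.24. The limma adjusted p of 1440926_at was 0.700, and 5 of 6 p190B arrays lay below the control mean for it. The transcripts of Flt1 that each probe set reads were not analysed here.

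The angiopoietin receptors gave small differences of opposite sign. Tek, the receptor tyrosine kinase Tie2 that binds angiopoietins, ran from 2484.7 to 4061.4 units in control (median 3534.2) and from 2450.1 to 3488.0 in p190B (median 2936.2). No p190B array reached the control median, but control replicates 2 and 6 were about as low as the lowest p190B arrays, and the difference was −0.18 (SE 0.13, 95% interval −0.46 to 0.10; limma adjusted p = 0.720). Tie1, its related coreceptor, ran from 906.8 to 1561.9 units in control (median 1364.6) and from 1170.5 to 1884.2 in p190B (median 1257.9). The difference was 0.13 (SE 0.16; limma adjusted p = 0.866), and p190B replicates 3 and 6 lay above all control arrays.

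Junction and surface genes of endothelium also overlapped between genotypes. Cdh5, which encodes VE-cadherin, the cadherin of endothelial adherens junctions, ran from 1667.7 to 3858.2 units in control (median 3683.4) and from 2371.8 to 3410.7 in p190B (median 2852.6) by 1433956_at. Here 4 control arrays lay between 3634.2 and 3858.2, above every p190B array, while control replicates 2 and 6 were at 2461.7 and 1667.7. The difference was −0.09 (SE 0.19; limma adjusted p = 0.927), and −0.27 without control replicate 6. The dimmer Cdh5 probe set, 1422047_at, ran from 274.8 to 407.7 units over all arrays and gave −0.07 (SE 0.11), and it followed the brighter one only loosely (r = 0.45 over 12 arrays).

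Cldn5, the claudin of endothelial tight junctions, ran from 3126.0 to 6867.3 units in control (median 5213.3) and from 3729.9 to 5988.8 in p190B (median 5010.0). The p190B range lay inside the control range, and the difference was −0.01 (SE 0.18; limma adjusted p = 0.993). Pecam1, the adhesion molecule CD31 of endothelium that platelets and leukocytes also carry, ran from 5111.9 to 7011.5 units in control (median 6334.6) and from 4698.7 to 7425.1 in p190B (median 6057.3). Both the highest and the lowest Pecam1 values came from p190B arrays, replicates 6 and 1, and the difference was −0.02 (SE 0.11; limma adjusted p = 0.977). Emcn, the sialomucin endomucin of capillary and venous endothelium, ran from 7000.6 to 10711.1 units in control (median 9316.2) and from 6376.2 to 9341.1 in p190B (median 8473.1), a difference of −0.11 (SE 0.11; limma adjusted p = 0.823).

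Rgs5, a regulator of G protein signalling abundant in pericytes, ran from 13538.1 to 18611.1 units in control (median 17347.2) and from 13303.3 to 23639.0 in p190B (median 17561.5) by 1417466_at. p190B replicate 3 stood above all others, and the remaining p190B arrays lay within or just below the control range. The difference was 0.11 (SE 0.12, 95% interval −0.15 to 0.37; limma adjusted p = 0.842), and 0.02 without p190B replicate 3. Among its other probe sets 1420942_s_at gave 0.20 (SE 0.15), 1420941_at −0.07 (SE 0.11) and 1420940_x_at −0.15 (SE 0.23). The first 2 followed 1417466_at closely, with r = 0.95 and 0.88 over the arrays, whereas 1420940_x_at, a type of probe set that can cross-hybridise, had r = −0.01 with it.

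Mcam, the adhesion molecule CD146, ran from 950.5 to 1531.3 units in control (median 1051.0) and from 655.1 to 1334.1 in p190B (median 918.5). For this gene 4 of 6 p190B arrays lay below every control array, and the other 2, replicates 3 and 6, lay within the control range. The difference was −0.25 (SE 0.16, 95% interval −0.60 to 0.10; limma adjusted p = 0.687), the largest in size among the 17 probe sets, and leaving out each array in turn gave −0.35 (without p190B replicate 6) to −0.15 (without p190B replicate 1). An exact two-sided permutation test over the arrays gave p = 0.199 for Mcam.

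**Figure D1:**
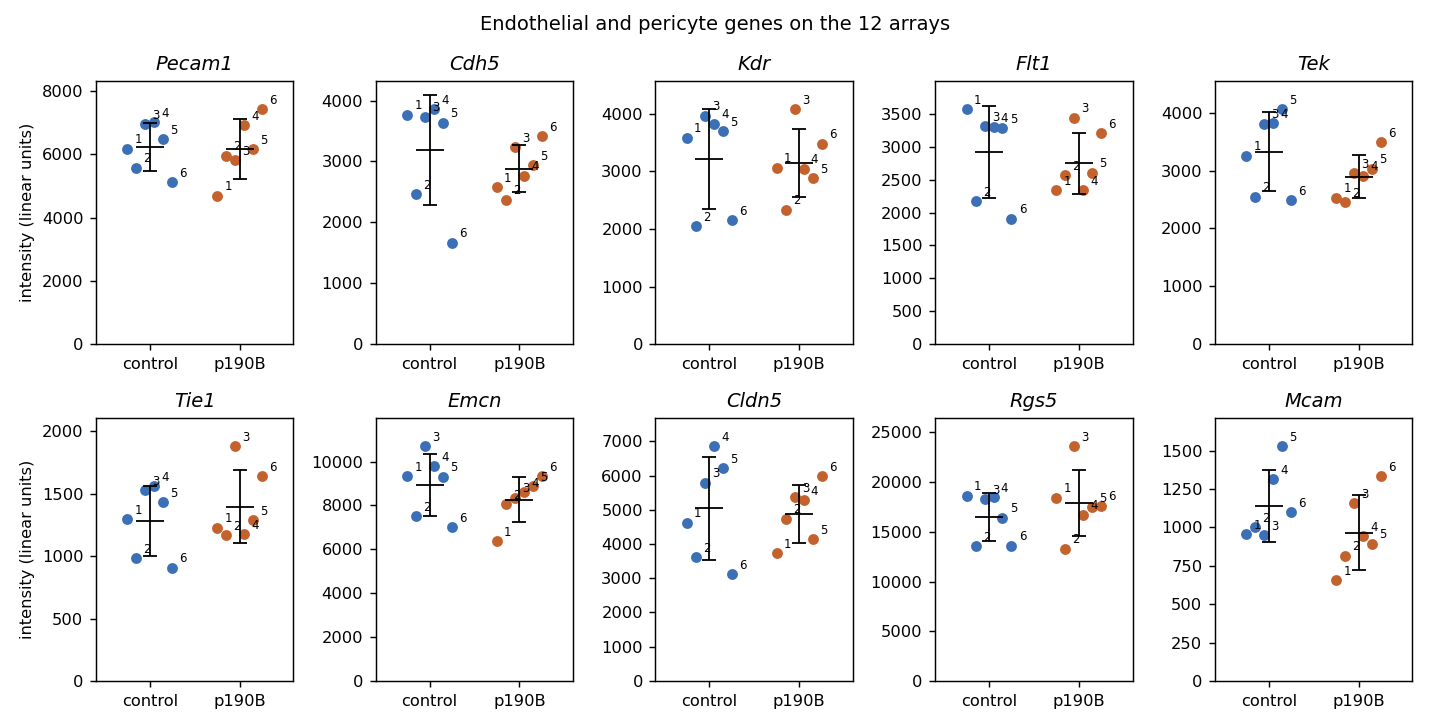
Intensity in linear units (y axis, from 0) of the 10 vessel genes by their brightest probe set, for 6 control arrays (blue) and 6 p190B arrays (orange). Each point is an array labelled with its replicate number, and the black mark and bar give the mean and SD. The 2 groups overlap for every gene, control replicates 2 and 6 are among the lowest 2 arrays for 5 and 8 of the 10 genes, and p190B replicate 3 is the highest for Kdr, Tie1 and Rgs5.

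Over the whole set, 0 of 17 members' probe sets were below an adjusted p of 0.05 by limma, where 0.037% of all tested probe sets were (10 of 27022), 0.0333% lower and 0.0037% higher in p190B. At an unadjusted limma p under 0.05 there were also 0 of 17 members, against 9.32% of all tested probe sets, and 0 of 17 separated the genotypes fully, against 0.877%. Of the 17 probe sets 12 were lower and 5 higher in p190B, and by brightest probe set 7 of 10 genes were lower and 3 higher, with a median log2 difference of −0.04. Averaged over the 10 genes the log2 level was 11.83 ± 0.20 for p190B (SD, n = 6) and 11.88 ± 0.30 for control (SD, n = 6), a difference of −0.05. That mean difference became −0.14 without control replicate 6 and 0.0029 without control replicate 4. The intervals of single genes were wide: for Kdr, a change of up to about 0.38 in either direction on the log2 scale was within the 95% interval.

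**Figure D2:**
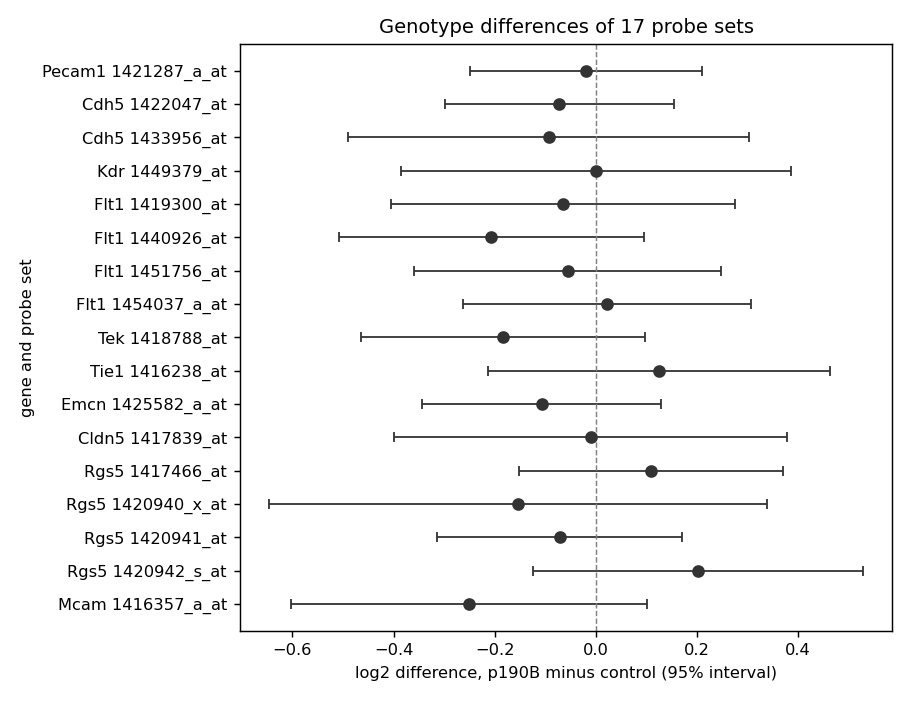
Log2 difference, p190B minus control (x axis), of the 17 probe sets of the vessel genes (y axis), with points for the limma estimate and bars for its 95% interval over 12 arrays. All 17 intervals cross 0, from −0.25 for Mcam to 0.20 for the Rgs5 probe set 1420942_s_at.

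The 3′ over 5′ ratios of Actb and Gapdh, which rise when RNA is degraded or copied incompletely, were higher on p190B arrays and moved with some members. For Actb the log2 ratio averaged 0.40 ± 0.11 over the p190B arrays (SD, n = 6) and 0.29 ± 0.03 over the control arrays (SD, n = 6), and p190B replicate 3 had the highest value, 0.59. On that array Rgs5, Kdr, Tie1 and the Flt1 probe set 1440926_at were at their highest. With the Actb ratio as a covariate the difference became −0.05 for Rgs5 (1417466_at), 0.13 for Pecam1 and 0.00034 for Emcn. With the Gapdh ratio it became 0.05 for Mcam and 0.17 for Pecam1. The Gapdh log2 ratio ran from −0.48 to −0.32 over p190B arrays and from −0.52 to −0.47 over control arrays. Only p190B replicate 5 lay inside the control range, so this fit tells genotype and ratio apart poorly. In it the SE rose from 0.16 to 0.24 for Mcam and from 0.11 to 0.16 for Pecam1. The part of RNA quality in these values was not tested further, and 0 of 17 probe sets passed in either fit. Labels give no date or batch for the arrays.

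The vessel genes differed in their spread between arrays. By brightest probe set the highest array exceeded the lowest 2.31-fold for Cdh5, 2.34-fold for Mcam, 2.20-fold for Cldn5, 2.08-fold for Tie1 and 1.99-fold for Kdr. The ratio was 1.87 for Flt1, 1.78 for Rgs5, 1.68 for Emcn, 1.66 for Tek and 1.58 for Pecam1. The SD of Cdh5 over the 12 arrays (log2, 0.36) was above that of 84.2% of all tested probe sets, and that of Pecam1 (0.20) above 42.0%. Cdh5 also had an SD of 0.49 over control arrays against 0.20 over p190B arrays.

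Low arrays were low for many members at once. Control replicate 6 was the lowest array for 4 of 10 genes and among the lowest 2 for 8, and control replicate 2 was among the lowest 2 for 5. p190B replicate 1 was the lowest for Pecam1, Emcn and Mcam, and p190B replicate 2 for Tek and Rgs5. Relative to each gene's own median the median deviation was −0.44 on control replicate 6 and −0.35 on control replicate 2 (log2), and 0.25 on control replicate 4 and 0.23 on control replicate 3. The p190B arrays lay between these, from −0.28 on replicate 1 to 0.18 on replicate 6.

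**Figure D3:**
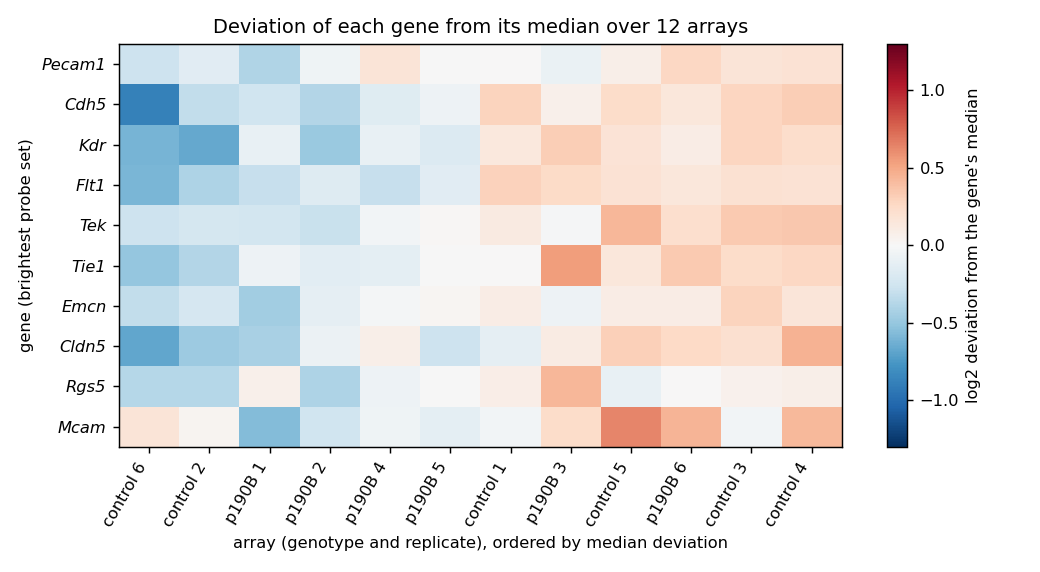
Log2 deviation of each vessel gene (rows, brightest probe set) from its own median over the 12 arrays (columns, ordered by the median deviation over the 10 genes), with blue below and red above the median. Control replicates 6 and 2 stand at the low end, with median deviations of −0.44 and −0.35, and control replicates 3 and 4 at the high end, with 0.23 and 0.25. Mcam departs from the others on control replicate 6, where it is above its median.

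The endothelial genes rose and fell together across preparations. All 45 pairs among the 10 genes had a positive Pearson r over the 12 arrays, with a median of 0.76, and the 28 pairs among the 8 endothelial genes ran from 0.53 to 0.92 with a median of 0.80. Cdh5, whose product is largely restricted to endothelium, served as the reference for tests. It correlated with Flt1 at r = 0.92 (Spearman's rho 0.86), Kdr at 0.87 (0.81), Tek at 0.86 (0.91), Cldn5 at 0.83 (0.75), Emcn at 0.81 (0.88) and Tie1 at 0.80 (0.79). The two-sided permutation p of r was 0.00011 for Flt1, 0.00015 for Kdr and 0.00021 for Tek (0.00063 each after adjustment over the 9 relations with Cdh5). It was 0.00072 for Cldn5 (adjusted 0.00162), 0.00136 for Emcn and 0.00138 for Tie1 (adjusted 0.00207 each). The permutation p of rho for these 6 genes, adjusted likewise, was 0.0106 for Cldn5 and 0.0058 for Tie1, and at most 0.00497 for the others. For comparison, 0.777% of all tested probe sets reached an r of at least 0.8 with Cdh5, and 9.69% reached at least 0.5. The members and the gene lists below were not chosen blind to these data, which limits what such comparisons can show.

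By brightest probe set Pecam1, Rgs5 and Mcam followed Cdh5 less closely. Pecam1 had r = 0.69 with Cdh5 (rho 0.73; permutation p = 0.0131, adjusted 0.0168, and p = 0.00965 for rho, adjusted 0.0124). Rgs5 had r = 0.66 (rho 0.69; permutation p = 0.0198, adjusted 0.0223, and p = 0.0170 for rho, adjusted 0.0191). Its other probe sets had r = 0.82 (1420941_at), 0.62 (1420942_s_at) and 0.60 (1420940_x_at) with Cdh5. Mcam had r = 0.38 (rho 0.44), which did not pass (permutation p = 0.222 and 0.153 for rho, the same after adjustment). The 2 arrays farthest from the Cdh5 median were control replicate 6 and p190B replicate 2. Without them r was 0.41 for Rgs5 by 1417466_at (permutation p = 0.260), so the relation of that probe set rested on them. It also missed the threshold without control replicate 6 alone (r = 0.57, adjusted permutation p = 0.0658) or p190B replicate 2 alone (r = 0.63, adjusted 0.0545). With both arrays left out r was 0.63 for Pecam1 (adjusted permutation p = 0.0596), 0.60 for Mcam and 0.68 for Tie1 (adjusted 0.0477). For Kdr, Flt1, Tek, Emcn and Cldn5 it was from 0.80 to 0.94. Without control replicate 6 alone the Mcam relation passed, with r = 0.64 (adjusted permutation p = 0.0419).

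Within genotypes the relations had different strengths, and that difference was not tested. The median r over the 45 pairs was 0.91 among the 6 control arrays and 0.65 among the 6 p190B arrays. Mcam went the other way, with a median r over its 9 pairs of 0.25 in control and 0.82 in p190B. With the low control replicates 2 and 6 left out, r with Cdh5 over the other 10 arrays was 0.91 for Tek, 0.88 for Flt1, 0.86 for Kdr, 0.77 for Emcn, 0.70 for Mcam, 0.67 for Cldn5, 0.61 for Tie1, 0.56 for Pecam1 and 0.45 for Rgs5.

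Beneath the shared pattern the members formed different neighbourhoods. Pecam1 was closest to Emcn (r = 0.90) and Cldn5 (0.83) and far from Rgs5 (0.22). Rgs5 was closest to Kdr (0.87) and Tie1 (0.83), and its r was 0.35 with Emcn and 0.12 with Mcam. In p190B arrays alone r was −0.18 between Rgs5 and Pecam1 and 0.93 between Rgs5 and Kdr. In control arrays alone the same pairs gave 0.88 and 0.95. The Actb 3′ over 5′ ratio had r = 0.53 with Rgs5, 0.33 with Tie1, 0.13 with Kdr and 0.01 with Flt1 over the 12 arrays. With the other members r was −0.09 for Cdh5, −0.17 for Cldn5, −0.34 for Mcam, −0.41 for Tek, −0.44 for Emcn and −0.47 for Pecam1. The part of that ratio in the grouping was not tested.

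**Figure D4:**
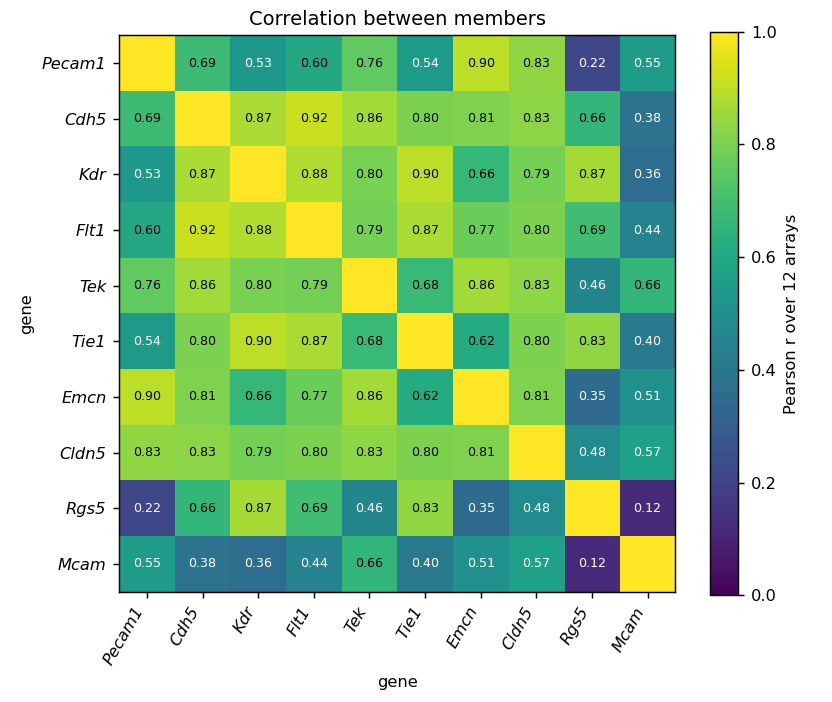
Pearson r over the 12 arrays between the vessel genes (both axes, brightest probe set of each), with colour from 0 to 1 and the value printed in each cell. The 8 endothelial genes have r from 0.53 to 0.92 with each other, Rgs5 is close to Kdr and Tie1 and at 0.22 with Pecam1, and Mcam stays at or below 0.66 with every other gene.

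Other vessel genes, listed by function, gave no genotype call either. Of 36 further endothelial genes 35 were tested, Gja5 being below the filter, and 0 passed the limma test, with 26 lower and 9 higher in p190B and a median of −0.08. Over all tested probe sets the median was 0.017 and 54.9% were higher. The 4 with the strongest signal were Cd93, a C-type lectin of endothelium (−0.19, SE 0.13), Esam, an endothelial junction adhesion molecule (0.03, SE 0.15), Selp, the venular adhesion receptor P-selectin (−0.12, SE 0.08), and Ackr1, the chemokine-binding receptor of venules (−0.11, SE 0.08). With Cdh5, 26 of these 35 genes had an r of at least 0.5 against 9.69% of all tested probe sets, and the list's median r was 0.65. Cd93 reached 0.92 and Esam 0.79, while Ackr1 stood at 0.56 and Selp at 0.09. The smallest unadjusted p was that of Fli1, an ETS factor of endothelium and blood cells named after its value was seen, at −0.37 (SE 0.16; limma adjusted p = 0.489).

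Mural genes also moved with Cdh5 over the arrays. Of 12 other pericyte and vascular smooth muscle genes 11 were tested, and 0 passed, with 6 lower and 5 higher and a median of −0.07. Pdgfrb, the PDGF-B receptor on which pericytes depend and which fibroblasts also carry, ran from 3451.0 to 6383.0 units in control and from 3795.9 to 5513.4 in p190B, a difference of −0.15 (SE 0.15). The other 3 with the strongest signal were Abcc9, a channel subunit of pericytes (−0.07, SE 0.12), Notch3, the Notch receptor of mural cells (0.0050, SE 0.12), and Gucy1a1, a subunit of the nitric oxide receptor (−0.10, SE 0.20). With Cdh5, 10 of 11 had an r of at least 0.5, against 9.69% of all tested probe sets, and the median was 0.66. Pdgfrb had r = 0.93 with Cdh5 (rho 0.93; permutation p = 2e-05 and 3e-05 for rho, adjusted 0.00022 and 0.00033 over 11 relations with genes of other cell types). Flt1, the member nearest to Cdh5 by r, had 0.92, and the gap between these values was not tested. Pdgfrb stayed at 0.94 without the 2 farthest arrays.

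Ligands and coreceptors followed Cdh5 in fewer cases. The list of 12 held VEGF, angiopoietin and PDGF ligands and coreceptors and also Apln and Angptl4. Of these 12 genes 0 passed between genotypes, with 9 lower and 3 higher and a median of −0.06. The coreceptors Nrp1 and Nrp2, which sit on endothelium beside the VEGF receptors, had r = 0.84 and 0.74 with Cdh5. Vegfa, the main VEGF ligand and made by many epithelial cells, ran from 1483.3 to 2534.4 units in control and from 1402.0 to 2366.0 in p190B, and had r = −0.68 with Cdh5. Angptl4, a secreted inhibitor of lipoprotein lipase, had r = −0.03. In all 3 of the 12 reached an r of at least 0.5, against 9.69% of all tested probe sets. The third was Vegfc, a ligand of lymphatic VEGF receptor 3, which is named after its value was seen. Vegfc also had the smallest unadjusted p of the list, at −0.28 (SE 0.12; limma adjusted p = 0.476).

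Luminal epithelial genes moved opposite to Cdh5 over the arrays. All 10 luminal markers, among them Epcam and the keratins Krt8, Krt18 and Krt19, had a negative r with Cdh5, with a median of −0.54, where 12953 of 27022 tested probe sets were negative. Of 9 basal markers 6 were negative and 3 positive, from −0.60 for Krt14 to 0.28 for Krt5, with a median of −0.32. The luminal genes' summed signal was highest on control replicates 2 and 6, at 285048 and 272485 units, and lowest on control replicate 4, at 219221. The members' summed signal was 41462, 39038 and 59786 units on those arrays. The highest members' sum of all, 59917 units on p190B replicate 3, stood beside a luminal sum of 265647, so the 2 sums were not opposite on every array. By genotype the luminal sum ran from 219221 to 285048 units in control and from 239954 to 267479 in p190B, and the members' sum from 39038 to 59786 and from 43772 to 59917. The part of the epithelial share in the vessel values was not tested. Each array had been scaled to the same mean, so a larger share of signal from some genes goes with a smaller share from others. The single tested genes Krt18 (r = −0.43, permutation p = 0.162) and Krt14, a basal keratin (r = −0.60, permutation p = 0.0392), did not pass after adjustment over 11 relations (0.445 and 0.144). Their rho was −0.55 and −0.48 (permutation p = 0.0693 and 0.122, adjusted 0.381 and 0.446). Without the 2 farthest arrays r was −0.73 for both.

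Of the 11 defining genes of other cell types that were set against Cdh5, 1 passed, which was Pdgfrb. Adipoq, the fat cell hormone adiponectin, had r = 0.61 (permutation p = 0.0359, adjusted 0.144; rho 0.27, adjusted 0.635) and r = 0.31 without the 2 farthest arrays. Col1a1, a fibroblast collagen, had r = 0.38, Ckm, muscle creatine kinase, 0.36, the platelet integrin Itga2b 0.28, the macrophage gene Adgre1 0.18, Cd79b of B cells 0.13, Cd3e of T cells 0.09 and Lyve1 of lymphatic endothelium and some macrophages 0.09, with adjusted permutation p from 0.466 to 0.789. Spearman's rho for these 7 genes ran from −0.15 for Col1a1 to 0.32 for Itga2b, with adjusted permutation p from 0.635 to 0.937. As whole lists, 0 of 8 fibroblast, 0 of 6 skeletal muscle and 0 of 4 adipocyte genes had a negative r with Cdh5. Their median r was 0.34, 0.39 and 0.36, beside 0.01 for macrophage, 0.02 for T and NK and 0.04 for B cell genes. By summed signal T and NK markers varied 26.4-fold and B cell markers 20.7-fold over the arrays, skeletal muscle markers 5.76-fold and the vessel genes 1.53-fold. Vessel signal did not rank the preparations in the same order as lymphocyte signal: T and NK signal was lowest on p190B replicate 1 and vessel signal on control replicate 6.

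**Figure D5:**
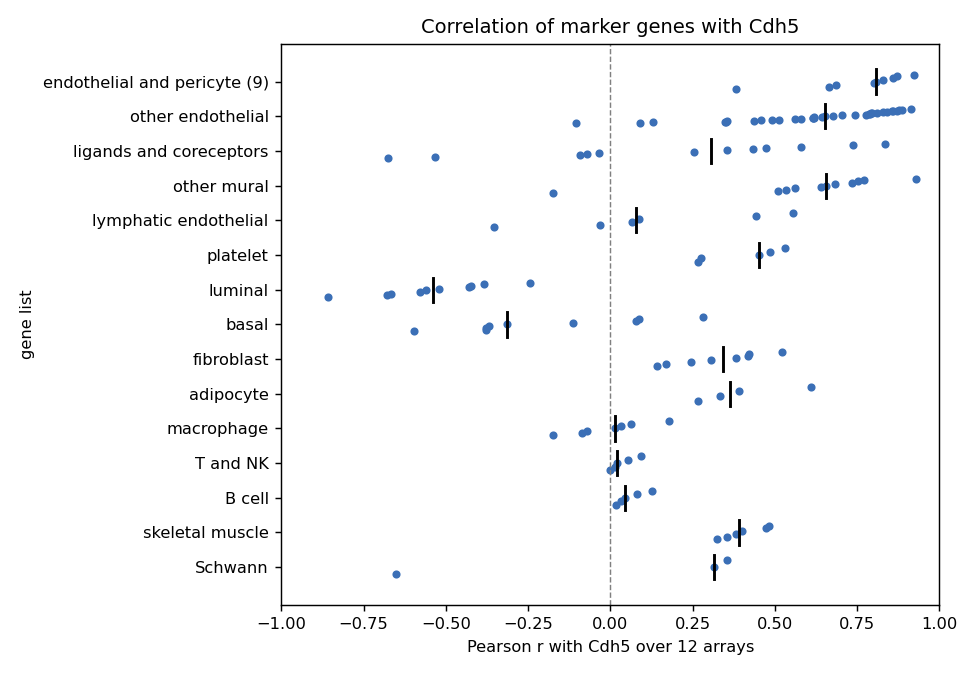
Pearson r with Cdh5 over the 12 arrays (x axis) of the tested genes of each list (y axis), with 1 point per gene and a black bar at the list's median. The 9 other vessel genes, the other endothelial genes (median 0.65) and the other mural genes (median 0.66) lie to the right, T, NK and B cell genes near 0, and all 10 luminal genes to the left (median −0.54).

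The genes most like the members were sought over 12760 other genes by their Pearson r with the mean of the 8 endothelial genes, as a description over 12 arrays. The 10 nearest were Arhgap31, Tmem182, Cd300lg, Btnl9, Cyyr1, Pdgfrb, Lrrc8c, Nrp1, Arap3 and Clic5, with r from 0.97 to 0.94. Arhgap31 and Arap3 encode GTPase-activating proteins. Arhgap31 ran from 2159.6 to 3510.9 units in control and from 2460.1 to 3301.7 in p190B, a difference of −0.0037 (SE 0.13), and Arap3 differed by −0.08 (SE 0.15). Cd300lg encodes nepmucin, an adhesion molecule of capillary and venular endothelium, and ranged from 551.0 to 1287.3 units over the arrays. Lrrc8c is a subunit of volume-regulated anion channels. Of these 10 genes 0 passed between genotypes, with limma adjusted p from 0.795 to 0.996.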

How the data were processed

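Per the labels, total RNA was extracted with Trizol, column-purified and turned into biotinylated cRNA for single-colour Affymetrix arrays. The deposited values are 1 linear intensity per probe set and array, and the submitters' processing notes name MAS5, whose version the labels do not give. In the files each array's 2% trimmed mean was 1000.01, so arrays were scaled alike, and MAS5 signals near the bottom are noisy. An array has no read depth, and 6 arrays per group limit the precision.

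Titles gave the groups and replicate numbers, and GEO's platform annotation gave the gene symbols. The members and gene lists were chosen with earlier results of these data known. Intensities were used as log2(value + 16), on which folds of dim genes are understated. Probe sets at or above the 40th percentile of mean log2 value (27022) entered 1 linear model per probe set (limma 3.58.1, R 4.3.3, trended prior variance), and two-sided p-values were adjusted over all of them by Benjamini-Hochberg. The limma fit, but not the other steps, was tested on simulated data. The probe set of highest mean stood for its gene, and lists were described by counts and medians. Correlations over the 12 arrays used 100000 permutations, two-sided. Named genes were all member probe sets, the 4 genes with the strongest signal of each further vessel list, the 10 genes most like the endothelial mean, and 11 defining genes of other cell types. A gene of that family is not reported here. Replicate numbers did not pair the arrays: deviations of same-numbered arrays correlated from −0.29 to 0.41. Other settings covered pseudocount, filter, normalisation, variance model, replicate block, 3′ over 5′ ratios and leaving out arrays. Promoters are RefSeq's, on GRCm38.p6. Plots used matplotlib 3.10.9.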

Additional observations from a re-analysis of the deposited data

Results flagged for a closer look

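The Flt1 probe set 1440926_at held the only arrays far from the rest of their group among 36 groups of 6 examined, 2 in all, where chance gives about 1 in 20. Control replicate 6 stood at 9.48 (log2) against 9.95 to 10.17 on the other control arrays. p190B replicate 3 stood at 10.29 against 9.56 to 9.82 on the other p190B arrays. The genotype difference of this probe set, −0.21 over all arrays, was −0.31 with either of these 2 arrays left out.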

How the results depend on the processing

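No fit tried called a vessel probe set after adjustment, with 17 tested in each except 16 under the filter at the 60th percentile and 10 with 1 probe set per gene. By unadjusted limma p, Flt1 1440926_at went below 0.05 without control replicate 6 (0.0264) or p190B replicate 3 (0.0242), with p190B replicates 1 and 3 left out (0.049991) and with the Actb ratio (0.0495), and Mcam without p190B replicate 6 (0.0412). The mean difference of the 10 genes moved by less than 1 SD under every alternative (−0.14 to 0.0029 without 1 array), and 7 or 8 of 9 relations with Cdh5 passed without any 1 array. Over all probe sets the 10 calls became 5 with no filter, 17 with a filter at the 60th percentile, 31 with quantile normalisation, 4 with equal medians, 3 without trend, 19 with array weights, 0 with the Gapdh ratio as covariate, 1 with that of Actb, 5 when p190B replicates 1 and 3 were left out, and 4 to 9 without 1 array. With the replicate block, which has no pairing behind it, they became 0, and it changed no call of a vessel gene. The cause of these changes was not tested.

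Some differences of vessel probe sets changed sign, with 0 past the threshold. The Gapdh ratio nearly separated the genotypes, so the fit with it tells genotype and ratio apart poorly. With the Gapdh ratio the log2 difference was 0.010 for Cdh5 1422047_at, 0.051 for Emcn, −0.080 for Flt1 1454037_a_at, −0.17 for Kdr, 0.047 for Mcam, 0.17 for Pecam1, −0.033 for Rgs5 1417466_at and 0.40 for Rgs5 1420940_x_at. With the Actb ratio it was 0.080 for Cdh5 1422047_at, 0.091 for Cldn5, 0.00034 for Emcn, −0.074 for Kdr, 0.13 for Pecam1, −0.051 for Rgs5 1417466_at, 0.30 for Rgs5 1420940_x_at and −0.016 for Rgs5 1420942_s_at. Without p190B replicates 1 and 3 it was 0.0040 for Cdh5 1422047_at, 0.042 for Cldn5, −0.092 for Kdr, 0.092 for Pecam1, −0.013 for Rgs5 1417466_at and 0.16 for Rgs5 1420940_x_at. Equal medians gave −0.0086 for Flt1 1454037_a_at and −0.030 for Kdr, and array weights −0.024 and −0.078. Leaving out 1 array gave −0.14 to 0.090 for Cldn5, −0.18 to 5.6e-05 for Flt1 1419300_at, −0.17 to 0.044 for Flt1 1451756_at, −0.036 to 0.12 for Flt1 1454037_a_at, −0.12 to 0.083 for Kdr and −0.076 to 0.056 for Pecam1.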

Other observations

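Within the endothelial list some adhesion genes of activated or venular endothelium had r near 0 with Cdh5. Sele, which encodes E-selectin, and Vcam1, a leukocyte adhesion receptor that stromal cells also carry, had r = 0.13 and −0.10 with Cdh5 over the 12 arrays, beside 0.09 for Selp. Not all venular genes were alike in this, as Ackr1 had r = 0.56 and Emcn, of capillary and venous endothelium, 0.81. Sele and Vcam1 are named after their values were seen. Between genotypes they differed by −0.16 (SE 0.12) and −0.24 (SE 0.13), and neither passed limma (adjusted p = 0.710 and 0.592).

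Lymphatic endothelial markers were tested for 6 genes, with 4 lower and 2 higher in p190B, a median of −0.15 and 0 past the limma threshold. Lyve1 ranged from 614.9 to 4027.0 units over the arrays, 6.55-fold. Reln, a secreted matrix protein, and Flt4, VEGF receptor 3, had r = 0.55 and 0.44 with Cdh5, and Pdpn, podoplanin, which basal epithelium also carries, had −0.35. Over the 6 lymphatic genes the median r with Cdh5 was 0.08, and 2 were negative. Of 5 platelet markers tested 0 passed, and their r with Cdh5 had a median of 0.45.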
